A study of Homo sapiens with 21 samples.

Results

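The genes described here were 10 angiogenic factors and co-receptors in 2 human cancer cell lines. They comprise the vascular endothelial growth factor (VEGF) family ligands VEGFA, VEGFB, VEGFC and PGF, the secreted factors ANGPTL4 and ADM, the ephrin EFNA1, the semaphorin SEMA3F and the neuropilins NRP1 and NRP2. They were picked by symbol for their function and because, as a group, their responses to low oxygen ran in opposite directions in the 2 lines. The comparison of 1% O2 with 18% O2 therefore chose these genes, and their values in it are given as a description without a test. All 10 were found in each of the 4 expression tables, which held 19505 and 17232 genes for the FADU and BFTC909 knockdown experiments, 18316 for the FADU overexpression experiment and 15719 for the FADU mutant clones.

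The study asked how the methyltransferase METTL4 and the long noncoding RNA RP11-390F4.3 take part in the response of tumor cells to hypoxia, and it measured RNA in 21 libraries. FADU is a line from a head and neck cancer, and BFTC909 (labelled BFTC-909) is a line from an urothelial cancer of the upper tract. In each line, Scramble-si cells were kept at 18% O2 (normoxia) or 1% O2 (hypoxia), and METL4-si cells (METTL4-si below) at 1% O2, for 18 h, with 2 libraries per group. The methods describe lentiviral short hairpin RNAs for knockdown, whereas the labels write si. FADU cells with a control vector, with METTL4-OE or with RP11-390F4.3-OE were kept at 18% O2, with 2 libraries per group, and came from stably transfected cells. The columns of RP11-390F4.3-OE carry another name in the table and were assigned to this group by elimination. FADU cells at 1% O2 gave 1 CRISPR control library and 1 library from each of 2 METTL4-DPPW-mut clones, in which prime editing had changed the catalytic motif DPPW to APAW and each clone grew from a single edited cell. Normoxic mutant libraries and mutant BFTC909 cells were not analysed here. No label says whether the 2 libraries of a group came from separate cultures, so p-values measure only the spread between these libraries.

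Hypoxic tumor cells are known to release factors that recruit blood vessels. VEGFA is the main ligand of the endothelial receptor KDR, PGF and VEGFB bind FLT1, and VEGFC acts mainly on lymphatic endothelium through FLT4. ADM encodes adrenomedullin, a vasodilator peptide, and ANGPTL4 encodes a secreted protein that inhibits lipoprotein lipase. Neuropilins are single-pass membrane proteins that bind VEGFs and class 3 semaphorins, so the same co-receptor can serve a ligand that promotes vessel growth or one, such as SEMA3F, that repels cells. EFNA1 is a membrane-anchored ligand of EphA receptor kinases.

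Values are read counts relative to library size, scaled by the trimmed mean of M values (TMM-normalized CPM). Library values are written in replicate order unless they are said to be in sorted order. The knockdown and overexpression libraries held from 19039000 to 25411000 reads on genes. All 6 hypoxia genes fixed as a check (CA9, SLC2A1, PDK1, NDRG1, EGLN3 and BNIP3) rose at 1% O2 in both lines by limma, with log2 fold changes of 1.28 for EGLN3 in BFTC909 at the least and 5.03 for CA9 in BFTC909 at the most. METTL4 itself had values of 26.6 and 25.3 in Scramble-si and of 24.2 and 27.1 in METTL4-si libraries of FADU under hypoxia, which overlap, so the mRNA gives no sign of a knockdown there and the groups are called by their labels. In BFTC909 METTL4 had values of 19.0 and 15.6 in Scramble-si and of 14.4 and 12.2 in METTL4-si libraries. The log2 difference of -0.36 did not pass the test (limma, adjusted p = 0.0717). With median-centred libraries it passed (-0.45, limma, adjusted p = 0.041). Without METTL4-si replicate 1 the difference was -0.46. METTL4-OE libraries held METTL4 at 157.5 and 139 against 35.4 and 32.7 with the control vector, and in the mutant table the gene's level does not check the edit. The level of RP11-390F4.3 is not given, since no source used here pairs its name with an identifier.

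Squamous markers fitted FADU, in which all 5 were listed and their summed value ran from 1379 to 3333 over all FADU libraries. BFTC909 had 2 of 8 urothelial markers listed, with PPARG from 10.7 to 28.2 and GATA3 below 1 in 5 of 6 libraries. The exception for GATA3 was METTL4-si replicate 2, where the urothelial sum was 148, against 11.2 to 29.0 in the other 5. BFTC909 also had 5 of 6 fibroblast markers listed, with a summed value from 1020 to 4652. The urothelial label of BFTC909 is therefore not borne out by these markers, and the fibroblast sum moved with hypoxia, from 1020 and 1114 at 18% O2 to 4447 and 4652 at 1% O2, and with METTL4-si, at 2481 and 2680; its part in the results was not tested. Markers of breast epithelium, 4 of 6 of which were listed in the FADU knockdown table, summed to 82.8 in FADU normoxia replicate 1 and 411 in FADU METTL4-si replicate 1, against 4.11 to 8.31 in the other 4 libraries. Of these markers TFF1 was at 26.2 and 135 in those libraries and at 0 in the other 4, and TFF3 and SCGB2A2 were not listed. Other marker sums were also highest in those libraries. The urothelial sum was 73.8 and 237 there, against 13.2 to 33.6 in the other 4. The fibroblast sum was 25.6 and 115.6, against 4.40 to 5.87. The breast name is therefore that of the list and not of a cell type shown to be present. In BFTC909 METTL4-si replicate 2 the 1 listed breast marker, GREB1, was at 121, against 1.52 to 10.6 in the other 5. In bulk RNA fewer cells of a type and less RNA per cell cannot be told apart. Endothelial markers, the cells these ligands act on, summed to 10.3 to 14.7 over 4 listed of 6 in the FADU knockdown table and to 18.0 to 30.7 over 2 of 6 in BFTC909, with ERG at 13.9 to 29.3 and VWF at 1.48 to 6.95 in BFTC909.

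The 10 genes lie on 9 chromosomes of GRCh37 (GENCODE v44 lifted to that build), all protein coding: VEGFA at chr6:43737921-43754224, VEGFB at chr11:64002056-64006736, VEGFC at chr4:177604689-177714076, PGF at chr14:75408537-75422329, ANGPTL4 at chr19:8428173-8439254, ADM at chr11:10326620-10328944, EFNA1 at chr1:155100352-155107375, SEMA3F at chr3:50192478-50226508, NRP1 at chr10:33466420-33625190 and NRP2 at chr2:206546714-206662857. VEGFC, PGF, ANGPTL4 and ADM moved together in most comparisons below, and NRP2 had the largest decrease of the 10 genes in hypoxic FADU cells. The 250 bases before the start of these 5 genes are therefore shown, from RefSeq on build GRCh38.p14, 5′ to 3′ on the strand of the gene. Capitals mark the core letters of a hypoxia response element, ACGTG or GCGTG, searched on both strands (CACGT or CACGC on the other strand, with CACGTG holding both). PGF has 2 starts in the reference, of which the second is shown; the first, at chr14:74955765-74956014, held no core.
VEGFC (chr4:176792923-176793172, minus strand): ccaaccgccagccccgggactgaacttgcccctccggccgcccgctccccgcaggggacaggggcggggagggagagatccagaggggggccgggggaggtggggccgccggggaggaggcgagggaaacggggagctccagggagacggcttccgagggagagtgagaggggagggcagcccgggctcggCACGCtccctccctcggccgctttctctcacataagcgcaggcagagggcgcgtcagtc
PGF (chr14:74955598-74955847, minus strand): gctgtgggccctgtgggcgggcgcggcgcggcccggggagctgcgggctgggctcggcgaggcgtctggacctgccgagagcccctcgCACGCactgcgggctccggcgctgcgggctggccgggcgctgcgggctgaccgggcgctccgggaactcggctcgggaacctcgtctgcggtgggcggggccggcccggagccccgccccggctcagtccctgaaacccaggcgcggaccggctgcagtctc
ANGPTL4 (chr19:8363905-8364154, plus strand): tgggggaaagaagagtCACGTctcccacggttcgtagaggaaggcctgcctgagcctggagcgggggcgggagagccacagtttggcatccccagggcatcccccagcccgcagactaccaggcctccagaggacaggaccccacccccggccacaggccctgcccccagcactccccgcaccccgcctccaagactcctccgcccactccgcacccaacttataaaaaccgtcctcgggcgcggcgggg
ADM (chr11:10304823-10305072, plus strand): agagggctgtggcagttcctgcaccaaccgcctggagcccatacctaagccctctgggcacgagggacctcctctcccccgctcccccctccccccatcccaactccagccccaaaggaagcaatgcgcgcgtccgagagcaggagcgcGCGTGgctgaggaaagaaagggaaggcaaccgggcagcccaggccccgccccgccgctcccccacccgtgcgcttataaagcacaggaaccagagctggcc
NRP2 (chr2:205682251-205682500, plus strand): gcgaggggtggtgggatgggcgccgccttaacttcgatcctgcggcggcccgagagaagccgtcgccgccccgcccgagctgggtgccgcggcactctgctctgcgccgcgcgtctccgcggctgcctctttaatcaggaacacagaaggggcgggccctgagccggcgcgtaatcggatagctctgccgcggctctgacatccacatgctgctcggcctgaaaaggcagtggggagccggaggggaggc
The core stood 59 bases before the start of VEGFC, 162 before that of PGF, 234 before that of ANGPTL4 and 101 before that of ADM, once in each. VEGFB held it 61 bases and EFNA1 229 bases before the start. NRP2 and the 3 starts of SEMA3F held none in this window, and VEGFA and NRP1 were not among the sequences used. In all, 6 of 8 genes and 6 of 11 starts held a core, against 43.2% of 35116 starts of all genes in the same window. A match describes letters and not a bound site.

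Levels per kilobase of the canonical transcript differed widely among the 10 genes within a line. In FADU at 18% O2, VEGFA stood at 67.2 normalized CPM per kb, followed by NRP1 at 11.99, SEMA3F at 8.64, EFNA1 at 7.73, VEGFB at 6.06, ADM at 5.03, NRP2 at 3.86, VEGFC at 3.12, PGF at 2.90 and ANGPTL4 at 1.86. SEMA3F and EFNA1 overlapped between libraries, as did VEGFC and PGF, and other neighbours in this order did not overlap. At 1% O2 the order in FADU was VEGFA at 50.7, ADM at 39.7, PGF at 19.6, ANGPTL4 at 18.1, EFNA1 at 15.9, VEGFC at 13.7, SEMA3F at 12.8, VEGFB at 7.43, NRP1 at 6.69 and NRP2 at 0.351. PGF overlapped ANGPTL4, ANGPTL4 overlapped EFNA1, VEGFC overlapped SEMA3F, and VEGFB overlapped NRP1.

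In BFTC909 at 18% O2 a co-receptor led, with NRP2 at 50.3 per kb, ADM at 30.8, VEGFC at 26.0, VEGFA at 21.3, NRP1 at 19.6, PGF at 11.6, VEGFB at 10.9, ANGPTL4 at 5.81, SEMA3F at 4.53 and EFNA1 at 1.59. VEGFA and NRP1 overlapped between libraries, and other neighbours did not. At 1% O2 VEGFA led at 121 per kb, ahead of ADM at 106, NRP2 at 57.7 and NRP1 at 26.0, and no neighbours of the 10 overlapped. These orders depend on the length used. Per kilobase of summed exons, 14431 bases for VEGFA against 3609 in the canonical transcript, ADM (68.3) stood above VEGFA (30.2) in hypoxic BFTC909 cells. VEGFA was then the third gene in hypoxic FADU cells and the sixth in normoxic BFTC909 cells, and PGF moved from the third place to the eighth in hypoxic FADU cells.

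At 1% O2 against 18% O2, 6 of the 10 genes were higher and 3 lower in FADU by at least 1.3-fold with no overlap between libraries, and in BFTC909 5 were higher and 0 lower. Of all genes tested, 13.4% were higher and 14% lower by this rule in FADU, and 20.7% were higher and 20% lower in BFTC909. Since this contrast chose the genes, nothing is read from these counts.

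Among the VEGF ligands, VEGFA ran in opposite directions. Its values in FADU were 237 and 248 at 18% O2 and 176 and 189.5 at 1% O2, lower in both hypoxic libraries, with a log2 difference of -0.41. In BFTC909 they were 70.2 and 83.8 at 18% O2 and 439.6 and 432 at 1% O2, higher in both, with a log2 difference of 2.49, or 5.66-fold. VEGFC and PGF ran the other way round. VEGFC went from 6.86 and 7.24 to 33.3 and 28.7 in FADU, a log2 difference of 1.99, and from 58.9 and 58.7 to 48.6 and 48.6 in BFTC909, a log2 difference of -0.27 that is under 1.3-fold. PGF went from 4.65 and 5.45 to 30.5 and 37.7 in FADU, a log2 difference of 2.53. In BFTC909 PGF went from 20.6 and 19.7 to 15.7 and 18.3, a log2 difference of -0.24 that is also under 1.3-fold. For both genes no hypoxic library overlapped a normoxic one in either line. VEGFB moved least in FADU, from 11.8 and 10.1 to 11.8 and 15.1 with overlapping libraries, and in BFTC909 it was at 20.1 and 19.3 against 31.7 and 29.0, a log2 difference of 0.60 without overlap.

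ANGPTL4 and ADM were higher under hypoxia in both lines. ANGPTL4 was at 3.28 and 3.66 in normoxic and at 29.6 and 38.3 in hypoxic FADU libraries (log2 difference 2.96), and at 10.8 and 10.9 against 23.2 and 27.4 in BFTC909 (1.14). ADM was at 7.81 and 7.19 against 57.5 and 60.9 in FADU (2.82), and at 44.7 and 47.3 against 157 and 160.3 in BFTC909 (1.77). Normoxic BFTC909 libraries thus listed ADM at a level between those of normoxic and hypoxic FADU libraries, although the tables were normalized separately.

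EFNA1 was at 13.7 and 10.3 in normoxic and at 23.0 and 26.5 in hypoxic FADU libraries, a log2 difference of 0.99 with no overlap. In BFTC909 it was at 1.79 and 3.15 against 3.23 and 3.20, a log2 difference of 0.31, with the hypoxic libraries just above the normoxic ones. SEMA3F was at 31.7 and 30.6 against 42.5 and 49.5 in FADU, a log2 difference of 0.54. In BFTC909 SEMA3F was at 16.4 and 16.2 against 13.9 and 14.7, a log2 difference of -0.18 that is under 1.3-fold. Both libraries of each group stood apart for SEMA3F in both lines, in opposite directions.

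The neuropilins were lower under hypoxia in FADU and higher in BFTC909. NRP2 was at 25.8 and 25.5 in normoxic and at 2.43 and 2.23 in hypoxic FADU libraries, a log2 difference of -3.001, and in BFTC909 at 326.5 and 342 against 380.0 and 386.5, a log2 difference of 0.20 that is under 1.3-fold. NRP1 was at 72.1 and 63.2 against 40.2 and 35.3 in FADU (-0.83), and at 110.2 and 110.8 against 146.6 and 146.7 in BFTC909 (0.41). No library overlapped between the groups for either gene in either line. Without FADU normoxia replicate 1, the library with breast markers, the counts in FADU remained 6 higher and 3 lower.

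**Figure D1:**
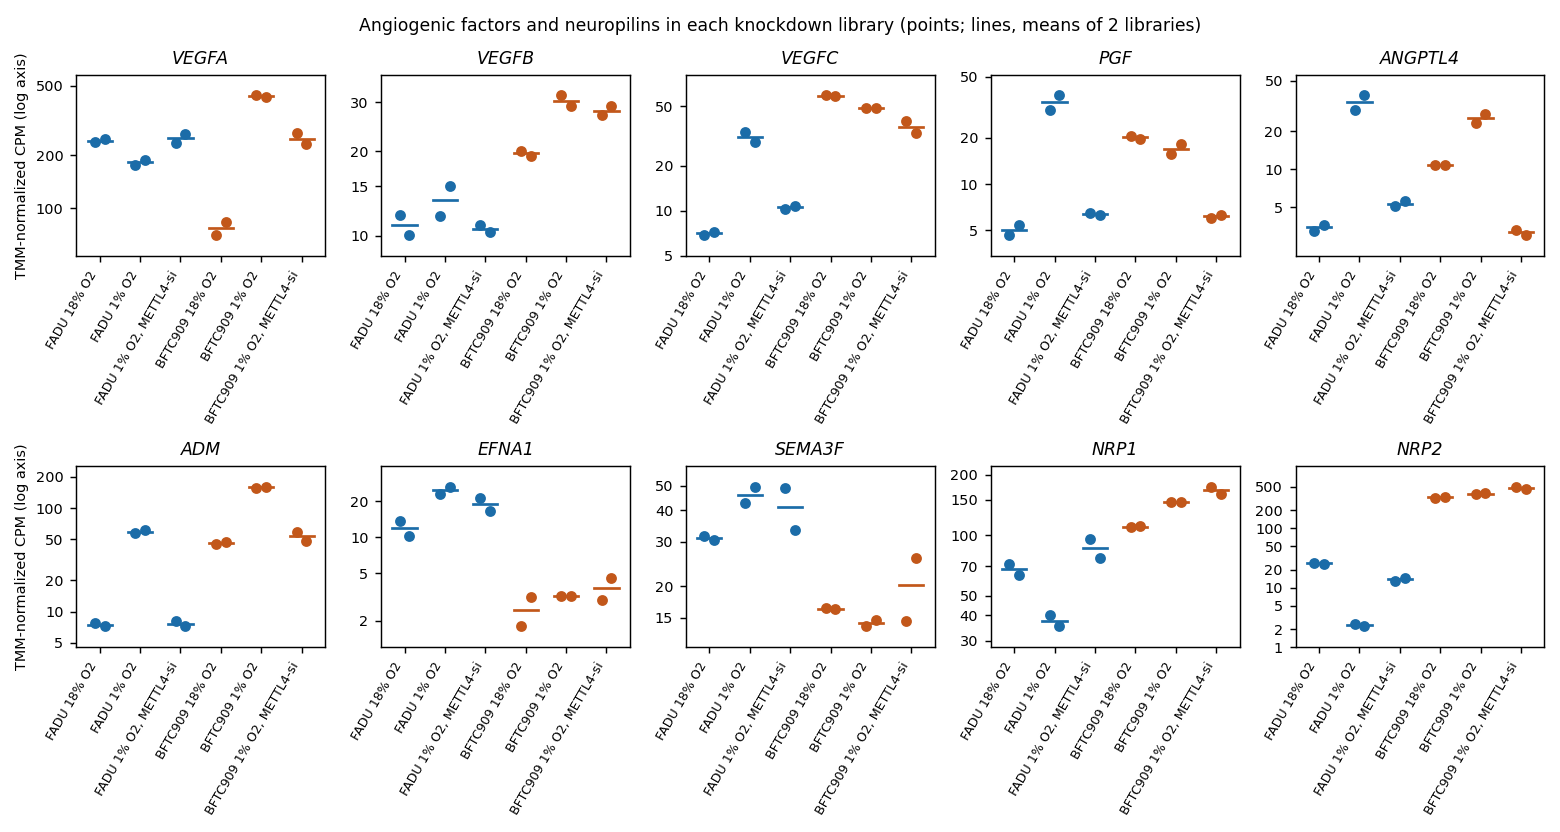
Values of the 10 genes in each of the 12 knockdown libraries, in TMM-normalized CPM on a log axis that differs between panels; blue points are FADU and orange points BFTC909, and short lines are the means of 2 libraries. VEGFA is lower at 1% O2 in FADU (176 and 189.5) and higher in BFTC909 (439.6 and 432), while NRP2 is at 2.43 and 2.23 in hypoxic FADU and at 380.0 and 386.5 in hypoxic BFTC909 libraries.

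The second question was whether these genes differed between METTL4-si and Scramble-si cells at 1% O2. This comparison shares the Scramble-si hypoxia libraries with the one that chose the genes, and is therefore not independent of the choice of genes. In FADU, where METTL4 mRNA was not lower in the libraries labelled METTL4-si, 3 of the 10 genes rose and 4 fell, where 12.5% of all tested genes rose and 15.3% fell (limma on log2(value + 1), adjusted p under 0.05 over all genes and at least 1.3-fold). In BFTC909 0 rose and 5 fell, against 13.2% and 11.7% of all genes. For the 0 that rose, edgeR and DESeq2 also gave 0, and the unadjusted p under 0.05 with 1.3-fold gave 0. The median log2 fold change of the 10 genes was -0.34 in FADU and -0.26 in BFTC909, beside 0.016 and 0.0099 over all genes tested. In BFTC909 1968 of 14869 genes rose and 1736 fell, but with median-centred libraries 1489 rose and 2510 fell. The balance over all genes there depends on the scaling. Where a library is left out below, its group holds 1 library, which the fit takes to vary like the other groups.

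VEGFC, PGF, ANGPTL4 and ADM fell in the libraries labelled METTL4-si of both lines. ADM in FADU was at 8.10 and 7.25 in METTL4-si libraries, against 57.5 and 60.9 in Scramble-si ones, a log2 fold change of -2.80 ± 0.10 (SE; limma, adjusted p = 4.04e-05), and these values overlapped those of normoxic cells. In BFTC909 ADM was at 59.0 and 48.2 against 157 and 160.3, a log2 fold change of -1.56 ± 0.099 (adjusted p = 8.61e-05), with both libraries just above the normoxic 44.7 and 47.3. ANGPTL4 was at 5.10 and 5.61 in METTL4-si libraries of FADU (-2.45 ± 0.15, limma, adjusted p = 0.000208) and at 3.33 and 3.02 in those of BFTC909 (-2.65 ± 0.12, adjusted p = 2.48e-05). The BFTC909 values of ANGPTL4 lay below those of its normoxic libraries. These falls were not particular to the members: all 6 hypoxia check genes also fell with METTL4-si in both lines, with log2 fold changes from -4.15 (NDRG1) to -1.90 (SLC2A1) in FADU and from -3.07 (CA9) to -1.09 (EGLN3) in BFTC909. In FADU both METTL4-si libraries had CA9 (1.87 and 2.22) and BNIP3 (13.2 and 11.7) below both normoxic ones (2.33 and 2.55, 14.4 and 15.4). The fibroblast markers of BFTC909 were lower in the same libraries, at 2481 and 2680 against 4447 and 4652, and their part in the BFTC909 falls was not tested.

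PGF was at 6.46 and 6.27 in METTL4-si libraries of FADU (-2.24 ± 0.14, limma, adjusted p = 0.000208) and at 6.05 and 6.29 in those of BFTC909 (-1.32 ± 0.11, adjusted p = 0.000221). PGF thus had lower values in METTL4-si than in normoxic libraries of BFTC909, where hypoxia itself had changed it by less than 1.3-fold. VEGFC was at 10.2 and 10.8 in METTL4-si libraries of FADU (-1.47 ± 0.11, limma, adjusted p = 0.00037). In BFTC909 it was at 39.5 and 33.0 against 48.6 and 48.6 (-0.42 ± 0.094, adjusted p = 0.0136). The BFTC909 fold change of VEGFC stayed at -0.42 without Scramble-si hypoxia replicate 1 or replicate 2, while its adjusted p passed the threshold in neither (0.0965 and 0.096), and without METTL4-si replicate 2, the library with GREB1 at 121, the log2 fold change was -0.29, under 1.3-fold, though its adjusted p was 0.00111 (limma; range over all settings 4.07e-06 to 0.0965).

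VEGFA moved against its hypoxic difference in each line. In FADU it rose to 235 and 267 in METTL4-si libraries from 176 and 189.5 (0.45 ± 0.083, limma, adjusted p = 0.00732), and in BFTC909 it fell to 267 and 231 from 439.6 and 432 (-0.81 ± 0.10, adjusted p = 0.00138). The FADU call was lost without Scramble-si hypoxia replicate 1 (limma, 0.40, adjusted p = 0.0781) and, by size, without METTL4-si replicate 2 (0.36, adjusted p = 0.00188). Whether the 2 lines differ was not tested. VEGFB passed in neither line, at 10.9 and 10.3 in FADU (-0.31, limma, adjusted p = 0.147) and at 27.0 and 29.0 in BFTC909 (-0.11, adjusted p = 0.373).

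The neuropilins rose in the FADU libraries labelled METTL4-si. NRP2 went from 2.43 and 2.23 to 12.9 and 14.8 (2.16 ± 0.11, limma, adjusted p = 0.000139), which is between the hypoxic and the normoxic Scramble-si values. NRP1 went from 40.2 and 35.3 to 96.2 and 77.2 (1.17 ± 0.13, adjusted p = 0.00116), above the normoxic 72.1 and 63.2 in both libraries. In BFTC909 NRP2 was at 499.6 and 461 against 380.0 and 386.5 (0.32 ± 0.067, limma, adjusted p = 0.00995), and this difference missed the 1.3-fold limit. It passed without METTL4-si replicate 2 (0.38, limma, adjusted p = 8.49e-06). NRP1 in BFTC909 was at 174 and 161 against 146.6 and 146.7 (0.19 ± 0.064, limma, adjusted p = 0.058).

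EFNA1 and SEMA3F passed in neither line. In each line both were higher in 1 METTL4-si library than in the other. In FADU this was the library with breast markers. In BFTC909 it was the library with GREB1 at 121, the 1 breast marker listed there. SEMA3F was at 48.8 and 33.4 in METTL4-si libraries of FADU against 42.5 and 49.5 (-0.18 ± 0.17, limma, adjusted p = 0.454), and at 14.5 and 26.0 against 13.9 and 14.7 in BFTC909 (0.42 ± 0.23, adjusted p = 0.194). EFNA1 was at 21.4 and 16.5 against 23.0 and 26.5 in FADU (-0.37 ± 0.17, limma, adjusted p = 0.139), and at 3.001 and 4.53 against 3.23 and 3.20 in BFTC909 (0.16 ± 0.23, adjusted p = 0.628). The breast markers summed to 411 in the FADU library with SEMA3F at 48.8 and to 4.27 in that with 33.4. GREB1 alone was at 121 in the BFTC909 library with SEMA3F at 26.0 and at 10.6 in that with 14.5. Without METTL4-si replicate 1 the log2 fold changes in FADU were -0.45 for SEMA3F and -0.55 for EFNA1. The spread of the 1 METTL4-si library left was taken from the other groups. Without METTL4-si replicate 1 of BFTC909, which leaves the library with GREB1 at 121, SEMA3F passed at 0.82 (limma, adjusted p = 5.54e-06), again with the spread taken from the other groups, so that the gap between the METTL4-si values of 14.5 and 26.0 no longer entered the test.

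**Figure D2:**
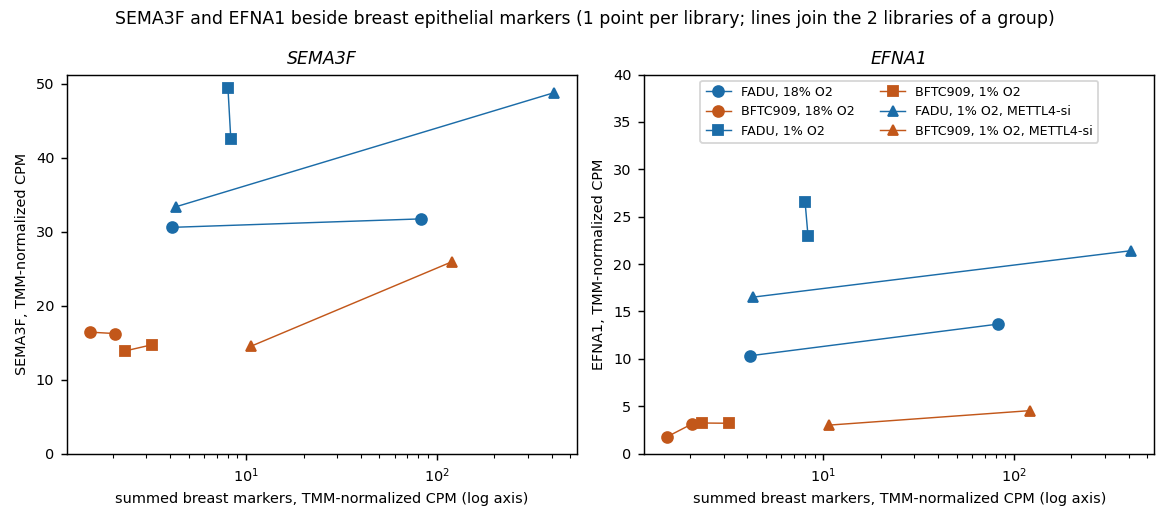
SEMA3F (left) and EFNA1 (right) in TMM-normalized CPM against the summed breast markers (log axis), 1 point per knockdown library, with a line joining both libraries of a group; the axes of values start at 0. The BFTC909 sum is GREB1 alone, the only breast marker listed there. The METTL4-si libraries with marker sums of 411 (FADU) and 121 (BFTC909) have the higher SEMA3F of their group, 48.8 against 33.4 and 26.0 against 14.5.

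The rule that chose the genes names the hypoxia response and no overexpression value, but results of the overexpression libraries, all at 18% O2, were known when the genes were chosen. METTL4-OE cells had 5 of the 10 genes higher and 1 lower than control vector cells, where 8% of all tested genes rose and 10.5% fell by the same limma test. RP11-390F4.3-OE cells had 6 higher and 0 lower, against 16.5% and 12.5% of all genes; edgeR, DESeq2 and the unadjusted criterion also gave 0 lower. Both comparisons share the 2 control vector libraries. The median log2 fold change of the 10 genes was 0.35 and 0.84, beside 0.0065 and 0.0091 over all genes tested. With RP11-390F4.3-OE 2584 of 15644 genes rose and 1955 fell, but with median-centred libraries 1997 rose and 2852 fell. The balance over all genes therefore depends on the scaling.

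VEGFC, PGF, ANGPTL4 and ADM, the same 4 genes that fell in METTL4-si libraries, rose with both transgenes. ANGPTL4 was at 2.58 and 1.68 with the control vector, at 7.50 and 5.94 with METTL4-OE (1.31 ± 0.14, limma, adjusted p = 4.82e-06) and at 58.5 and 60.4 with RP11-390F4.3-OE (4.29 ± 0.14, adjusted p = 2.15e-11). PGF was at 3.86 and 2.61 with the control vector, at 14.2 and 14.7 with METTL4-OE (1.89 ± 0.12, limma, adjusted p = 3.80e-08) and at 45.3 and 49.6 with RP11-390F4.3-OE (3.53 ± 0.12, adjusted p = 5.16e-11). For both genes the 3 groups did not overlap, and the RP11-390F4.3-OE means were 14.7-fold (PGF) and 27.97-fold (ANGPTL4) above the control vector means.

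ADM was at 6.44 and 6.61 with the control vector, at 22.1 and 20.9 with METTL4-OE (1.58 ± 0.080, limma, adjusted p = 3.79e-09) and at 29.4 and 29.9 with RP11-390F4.3-OE (2.03 ± 0.080, adjusted p = 2.10e-10). VEGFC was at 5.49 and 5.12, at 20.8 and 18.9 (1.73 ± 0.091, limma, adjusted p = 5.83e-09) and at 18.2 and 18.3 (1.61 ± 0.091, adjusted p = 8.42e-09) in the same order. All libraries with a transgene lay above both control vector libraries for these genes. All 6 hypoxia check genes also rose with both transgenes, with log2 fold changes from 1.00 (SLC2A1) to 2.96 (BNIP3) with METTL4-OE and from 1.27 (SLC2A1) to 4.23 (NDRG1) with RP11-390F4.3-OE.

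VEGFA was at 191 and 154 with the control vector and at 220.0 and 202 with METTL4-OE, a log2 fold change of 0.30 ± 0.076 that missed the 1.3-fold limit (limma, adjusted p = 0.00737). It passed without control vector replicate 1 (0.45, limma, adjusted p = 3.47e-05). With RP11-390F4.3-OE it rose to 306 and 311 (0.84 ± 0.076, limma, adjusted p = 8.70e-07). At 18% O2 VEGFA thus had a higher value with RP11-390F4.3-OE, whereas Scramble-si cells of the same line had a lower value at 1% O2 than at 18% O2. VEGFB had values of 10.8 and 12.1, 13.2 and 11.8, and 14.6 and 14.5 in the 3 groups; the last pair, with a log2 fold change of 0.32 ± 0.095, missed the 1.3-fold limit (limma, adjusted p = 0.0114) and passed without control vector replicate 2 (0.39, adjusted p = 0.011).

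EFNA1 and SEMA3F had values on opposite sides of the control vector with the 2 transgenes. EFNA1 was at 11.97 and 12.7 with the control vector and at 21.9 and 24.0 with RP11-390F4.3-OE (0.85 ± 0.087, limma, adjusted p = 3.04e-06), and at 10.5 and 10.2 with METTL4-OE (-0.23 ± 0.087, adjusted p = 0.0505). SEMA3F was at 27.95 and 28.6 with the control vector and fell to 21.3 and 20.6 with METTL4-OE (-0.42 ± 0.068, limma, adjusted p = 0.000269), a call that a pseudocount of 5 took below 1.3-fold (-0.36). With RP11-390F4.3-OE it was at 35.2 and 38.0 (0.36 ± 0.068, limma, adjusted p = 0.000545), short of 1.3-fold, and it passed without RP11-390F4.3-OE replicate 1 (0.42, adjusted p = 0.00172). Breast markers, of which 2 of 6 were listed in this table, summed to 32.1 in RP11-390F4.3-OE replicate 2 and to 3.73 to 5.96 in the other 5 libraries; their part in these values was not tested.

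NRP2 passed in neither overexpression comparison, at 18.4 and 17.1 with the control vector, 14.7 and 17.0 with METTL4-OE (-0.16, limma, adjusted p = 0.183) and 15.3 and 15.9 with RP11-390F4.3-OE (-0.18, adjusted p = 0.11). NRP1 rose with METTL4-OE, from 64.3 and 57.9 to 81.1 and 81.6 (0.41 ± 0.060, limma, adjusted p = 0.000106), a call lost without control vector replicate 2, where the difference of 0.34 was under 1.3-fold (adjusted p = 0.00102). With RP11-390F4.3-OE NRP1 was at 64.7 and 69.7 (0.14, limma, adjusted p = 0.0674). NRP1 therefore had higher values than its comparison group both with METTL4-OE at 18% O2 and with METTL4-si at 1% O2.

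**Figure D3:**
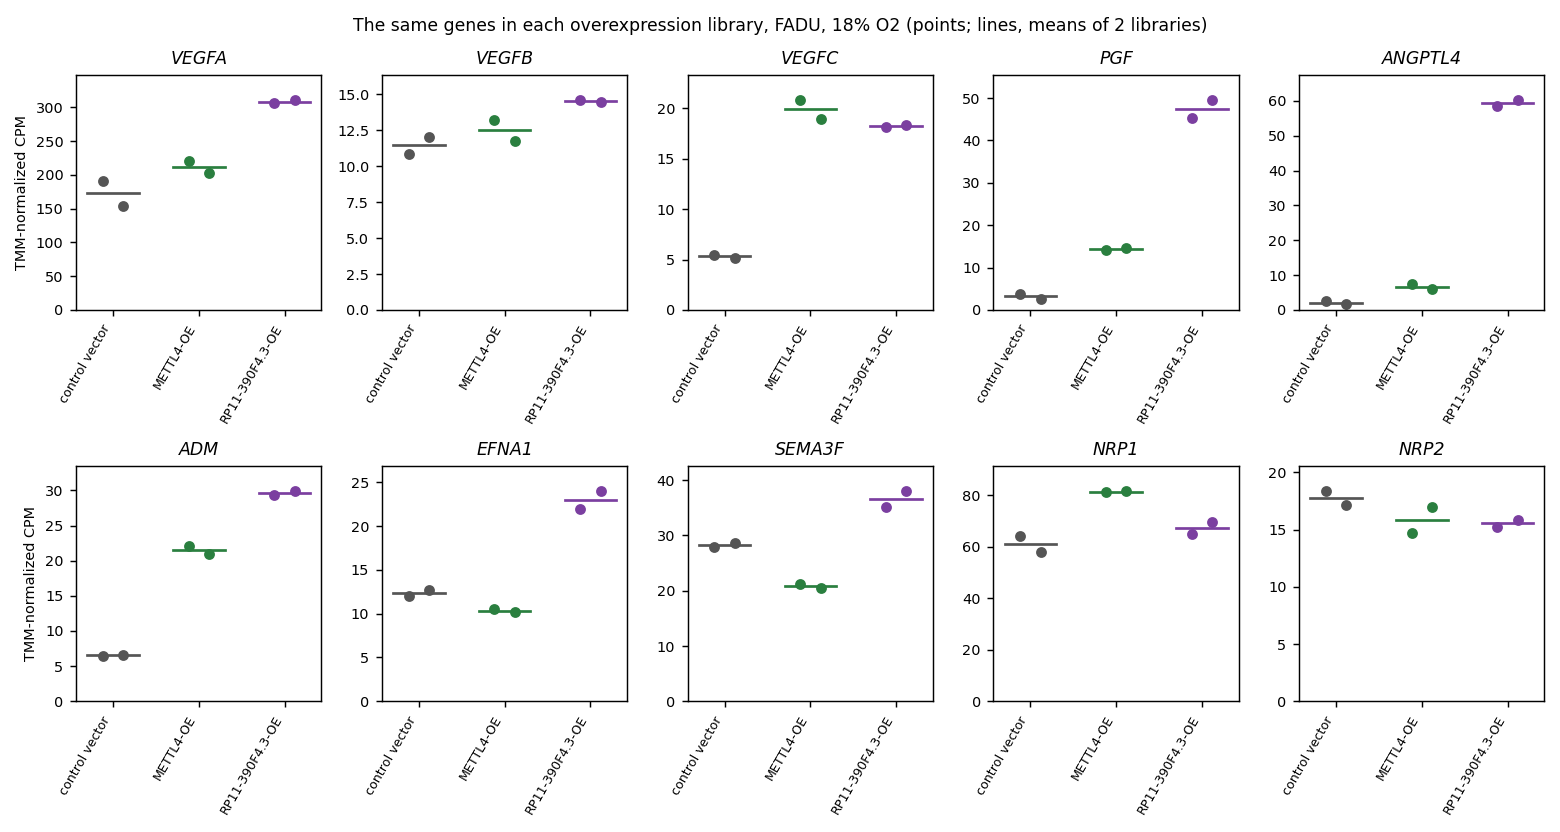
Values of the 10 genes in each FADU overexpression library at 18% O2, in TMM-normalized CPM on linear axes that start at 0; grey points are the control vector, green METTL4-OE and purple RP11-390F4.3-OE, and short lines are the means of 2 libraries. ANGPTL4 and PGF reach 60.4 and 49.6 with RP11-390F4.3-OE, and NRP2 lies between 14.7 and 18.4 in all groups.

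In the FADU METTL4-DPPW-mut clones at 1% O2, 0 of the 10 genes were higher and 2 lower than in the CRISPR control by at least 1.3-fold in both clones, where 10.3% of all genes were higher and 11.7% lower. With 1 control library there is no replicate check and no test. The lower genes were ANGPTL4, with a control value of 15.8 and clone values of 5.27 and 8.61 (log2 ratios -1.42 and -0.80), and EFNA1, at 12.5 against 7.003 and 7.56 (-0.75 and -0.66). Of the hypoxia check genes, CA9 (-1.44 and -0.93) and NDRG1 (-0.89 and -0.89) were also lower in both clones by this limit. SLC2A1, PDK1, EGLN3 and BNIP3 did not pass it in either clone, with log2 ratios from -0.23 to 0.37.

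Other members differed between the clones. VEGFC was at 4.46 in the control, 9.39 in clone 1 and 4.91 in clone 2, and NRP2 at 6.04, 12.2 and 6.95, so that only clone 1 passed 1.3-fold. VEGFA was at 92.7, 93.7 and 69.1, and NRP1 at 20.6, 28.1 and 16.1 with the clones on either side of the control. ADM was at 17.5, 24.8 and 21.8, PGF at 25.7, 19.4 and 23.4, VEGFB at 11.3, 8.25 and 9.02, and SEMA3F at 34.9, 32.7 and 31.4, none past 1.3-fold in both clones. No share over all genes was taken for either clone alone, so counts of members in 1 clone are not read as a result.

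**Figure D4:**
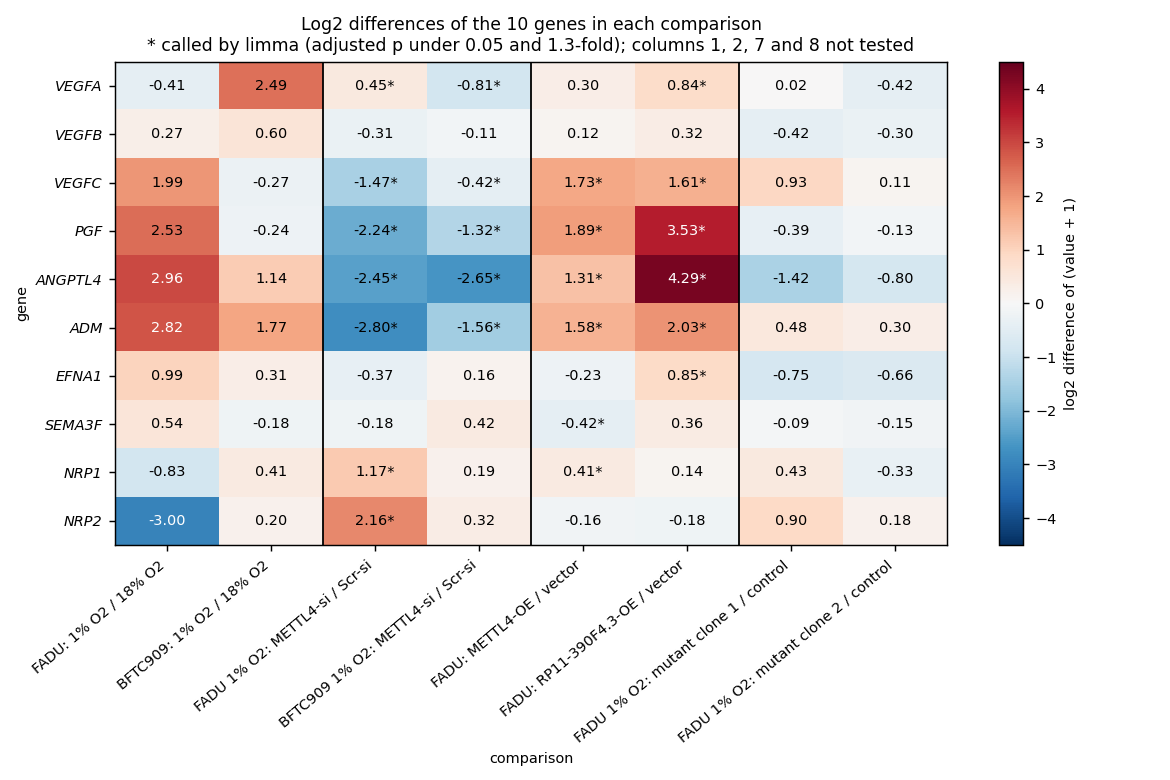
Log2 differences of (value + 1) for the 10 genes in rows and 8 comparisons in columns, red for higher and blue for lower, with a star for limma calls; the hypoxia and mutant columns carry no test. VEGFC, PGF, ANGPTL4 and ADM are lower with METTL4-si in both lines and higher with both transgenes, and ANGPTL4 reaches 4.29 with RP11-390F4.3-OE.

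Receptors, ligands and inhibitors of the same pathways came from a list of 73 other genes that holds none of the 10. Their median log2 fold change ran from -0.096 to 0.29 over the 6 comparisons. In hypoxic FADU cells 3 of 47 tested genes rose and 3 fell (6.4% each, beside 9.73% and 9.65% of all genes by limma). In hypoxic BFTC909 cells 15 of 41 rose and 9 fell (36.6% and 22.0%, beside 17.9% and 18.3% of all genes). With METTL4-si 17 of 47 rose and 2 fell in FADU (36.2% and 4.3%, beside 12.5% and 15.3% of all genes). This number changed when 1 library was left out, as did the number of calls over all genes. In BFTC909 12 of 41 rose and 13 fell with METTL4-si (29.3% and 31.7%, beside 13.2% and 11.7%). With METTL4-OE 10 of 44 rose and 13 fell (22.7% and 29.5%, beside 8% and 10.5%), and with RP11-390F4.3-OE 14 rose and 9 fell of the same 44, beside 16.5% and 12.5% of all genes.

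Of the 3 VEGF receptors and VEGFD, a further ligand, only VEGFD was tested, and it fell with both transgenes. Apelin (APLN), a peptide that acts on endothelial cells, was called in all 6 comparisons. It rose under hypoxia from 1.54 and 1.65 to 3.01 and 3.68 in FADU in sorted order (0.74 ± 0.14, limma, adjusted p = 0.013) and from a mean of 9.62 to 46.2 in BFTC909 (2.15 ± 0.10, adjusted p = 1.4e-05). It fell with METTL4-si to means of 1.08 in FADU (-1.06 ± 0.14, limma, adjusted p = 0.0025) and 10.9 in BFTC909 (-1.99 ± 0.10, adjusted p = 3.0e-05). It rose from 1.39 to 11.3 with METTL4-OE (2.36 ± 0.13, limma, adjusted p = 1.0e-08) and to 2.65 with RP11-390F4.3-OE (0.61 ± 0.13, adjusted p = 0.0015). The FADU hypoxia call was lost when any of its 4 libraries was left out, with log2 fold changes from 0.63 to 0.85.

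Among Eph receptors and ephrins, EPHA2, the receptor kinase that EFNA1 binds, fell from a mean of 269 to 130.2 in hypoxic FADU cells (-1.04 ± 0.062, limma, adjusted p = 0.00023), from 118 to 40.5 with METTL4-si in BFTC909 (-1.52 ± 0.088, adjusted p = 5.3e-05) and from 181 to 117 with RP11-390F4.3-OE (-0.63 ± 0.053, adjusted p = 4.8e-07). It rose with METTL4-si in FADU, from 130.2 to 184 (0.49 ± 0.062, limma, adjusted p = 0.0019). EPHB2 fell from 69.3 to 36.7 in hypoxic FADU cells (-0.90 ± 0.082, limma, adjusted p = 0.0011). EPHA3 rose in value from 0.281 to 1.97 there, and EFNA3 from 0.428 to 1.72, both low and both called (1.21 and 0.91). The EPHA3 call was lost without either normoxic library (limma, adjusted p = 0.065 and 0.0756), and the EFNA3 call when any of the 4 libraries was left out (0.0845 to 0.197). EPHA7 rose with METTL4-si in FADU from 1.77 to 7.54 (1.52 ± 0.36, limma, adjusted p = 0.019), and EPHA3 fell (-0.87, adjusted p = 0.026). The EPHA7 call was lost without either Scramble-si hypoxia library (1.46 and 1.57). The part of the METTL4-si library with breast markers in the EPHA7 rise was not tested. The EPHA3 call was lost without FADU normoxia replicate 2 and with DESeq2 (adjusted p = 0.0763). With a pseudocount of 5 the EPHA3 change was -0.30, under 1.3-fold. In all, 5 genes of this group rose and 1 fell with METTL4-si in each line, of 18 tested in FADU (beside 12.5% and 15.3% of all genes) and 10 in BFTC909 (beside 13.2% and 11.7%). With METTL4-OE 2 of 15 rose and 6 fell, beside 8% and 10.5% of all genes.

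Class 3 semaphorins and plexins are ligands and signalling partners of the neuropilins. In METTL4-si libraries 4 of 10 rose and 0 fell in FADU (beside 12.5% and 15.3% of all genes), and 2 of 7 rose and 1 fell in BFTC909 (beside 13.2% and 11.7%). In FADU SEMA3B had the largest change of those called, from 5.84 to a mean of 17.9 (1.41 ± 0.29, limma, adjusted p = 0.011), a call lost without Scramble-si hypoxia replicate 1 (0.0835) or replicate 2 (0.0657). It also rose with RP11-390F4.3-OE, from 5.95 to 17.0 (1.37 ± 0.14, limma, adjusted p = 2.2e-06). The libraries with higher breast markers in these groups are METTL4-si replicate 1 and RP11-390F4.3-OE replicate 2. Their part in these SEMA3B rises was not tested. In BFTC909 SEMA3C rose with METTL4-si from 12.2 to 71.2 (2.31 ± 0.35, limma, adjusted p = 0.0028), with libraries at 40.8 and 102 in sorted order, and PLXNA1 from 31.9 to 66.9 (1.03 ± 0.14, adjusted p = 0.0017). Sorted order does not tell which SEMA3C value came from METTL4-si replicate 2, the library with GREB1 at 121. The part of that library in these rises was not tested. PLXNA3 rose under hypoxia in BFTC909 from 13.1 to 42.5 (1.62 ± 0.19, limma, adjusted p = 0.00061). SEMA3E fell with METTL4-OE from 4.03 to 1.41 (-1.07 ± 0.17, limma, adjusted p = 0.00022) and with RP11-390F4.3-OE to 2.13 (-0.70 ± 0.17, adjusted p = 0.0036), the latter lost without RP11-390F4.3-OE replicate 1 (-0.49).

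Of 8 genes listed as inhibitors of angiogenesis, 5 of 7 tested rose and 0 fell with METTL4-si in FADU, beside 12.5% and 15.3% of all genes. In BFTC909 2 of 8 rose and 3 fell with METTL4-si (beside 13.2% and 11.7%), and 4 rose and 1 fell under hypoxia (beside 17.9% and 18.3%). VASH2 is among the genes that rose with METTL4-si in both lines. Its place among the inhibitors is that of the list, and no such function was shown here. With METTL4-si in FADU COL18A1, the precursor of endostatin, went from a mean of 26.0 to 65.1, with libraries at 47.1 and 83.1 in sorted order (1.24 ± 0.23, limma, adjusted p = 0.0079). Without Scramble-si hypoxia replicate 1 or replicate 2 this call was lost. Sorted order does not tell which value came from METTL4-si replicate 1, where breast markers summed to 411. The part of that library in this rise was not tested. In BFTC909 THBS1, thrombospondin 1, fell under hypoxia from 283 to 33.3 (-3.05 ± 0.62, limma, adjusted p = 0.006) and VASH1, vasohibin 1, rose from 0.857 to 4.58 (1.60 ± 0.24, adjusted p = 0.0018). SERPINF1 fell with RP11-390F4.3-OE from 5.98 to 3.39 (-0.67 ± 0.13, limma, adjusted p = 0.0006).

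Among other angiogenic ligands, the chemokine CXCL8 rose from 26.8 to 67.8 with METTL4-OE (1.31 ± 0.050, limma, adjusted p = 2.4e-10) and to 130.01 with RP11-390F4.3-OE (2.24 ± 0.050, adjusted p = 8.6e-13), and it also rose with METTL4-si in FADU, from 19.4 to 35.7 (0.85 ± 0.19, adjusted p = 0.014). PDGFB rose from 9.47 to 25.2 with METTL4-OE (1.32, limma, adjusted p = 1.7e-08), and PDGFD fell from 17.4 to 5.91 (-1.41, adjusted p = 1.3e-07). The growth factor midkine (MDK) fell with METTL4-OE from 33.2 to 14.9 (-1.11, limma, adjusted p = 1.3e-07) and rose with METTL4-si in BFTC909 from 5.23 to 20.4 (1.77 ± 0.15, adjusted p = 0.00028). The part of the BFTC909 METTL4-si library with high GREB1 in this rise was not tested. CCN2, a matricellular protein, rose with RP11-390F4.3-OE from 6.97 to 23.9 (1.64 ± 0.088, limma, adjusted p = 4.5e-09) and fell under hypoxia in BFTC909 from 202 to 83.6 (-1.26 ± 0.062, adjusted p = 1.9e-05) and in FADU from 6.90 to 4.59 (-0.50, adjusted p = 0.029). The FADU call was lost when any of its 4 libraries was left out (limma, adjusted p from 0.103 to 0.195). FGF1 fell in BFTC909 from 30.3 to 12.1 under hypoxia (-1.25, limma, adjusted p = 0.00079) and to 3.91 with METTL4-si (-1.44, adjusted p = 0.00072). The number of pathway calls in hypoxic FADU cells depended on which libraries were in the fit, and so did the number over all genes. All genes gave 1588 higher and 1575 lower of 16324 in the main fit. With the compared groups alone they gave 2089 higher and 2147 lower of 15711. The changed number of pathway calls is therefore not read as a result about these genes.

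**Figure D5:**
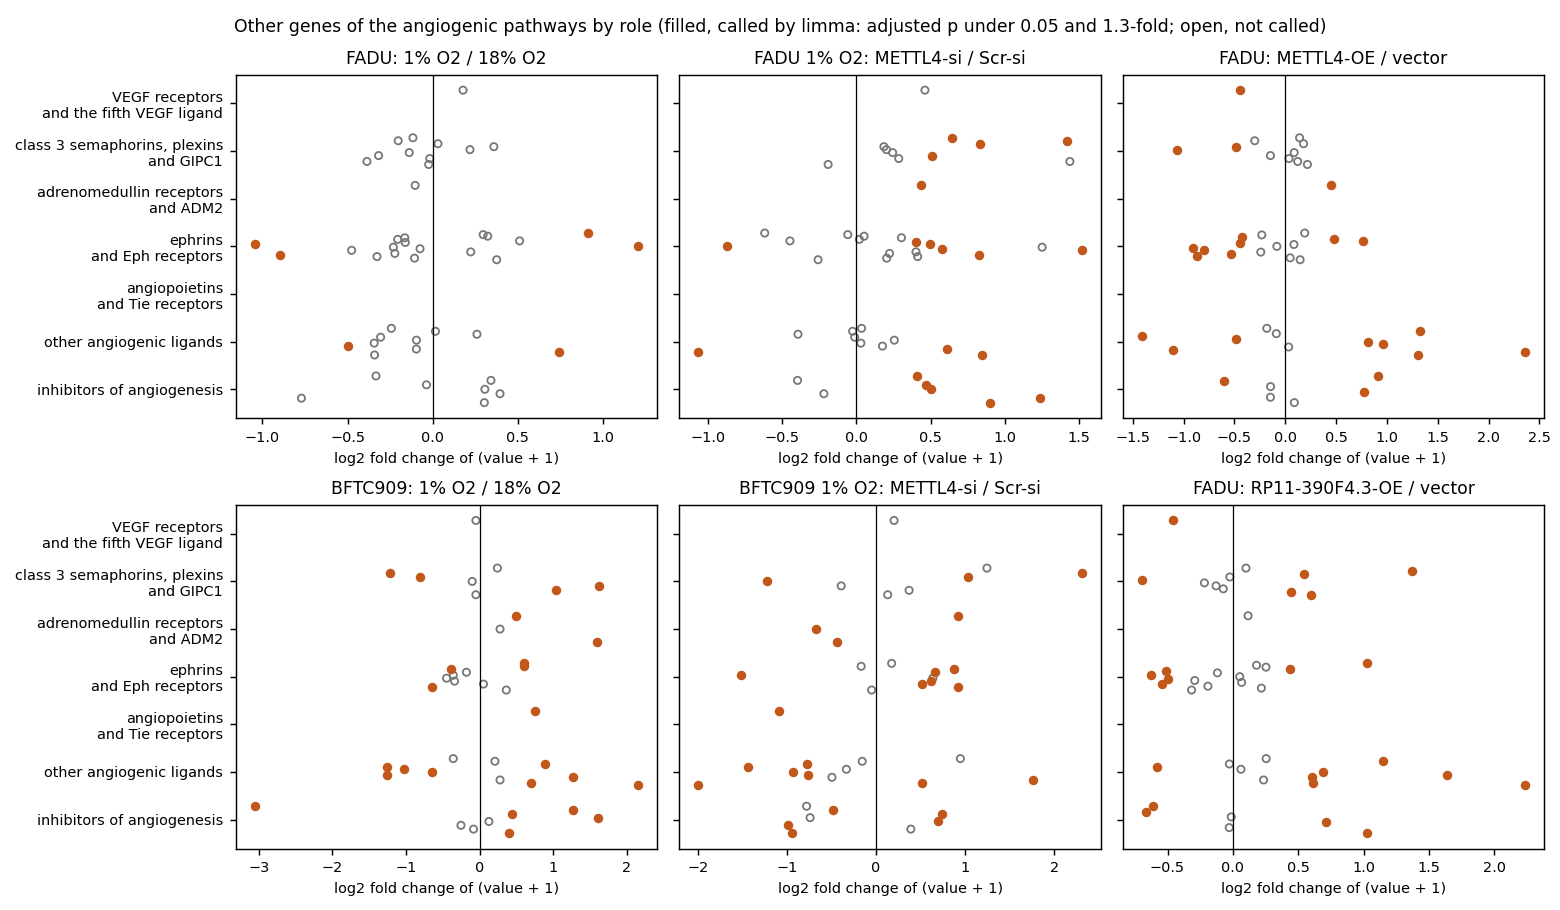
Log2 fold changes of (value + 1) of the other angiogenic pathway genes, 1 point per tested gene, by role (rows) and comparison (panels); filled points are limma calls and open points are not called. FADU cells at 1% O2 have 6 filled points of 47, and FADU METTL4-si cells 17 to the right of 0 and 2 to the left.

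The genes closest in pattern to VEGFA and NRP1 were sought over the 12 knockdown libraries, among 9825 genes with a mean of at least 5 in both tables, each table centred on its own mean. For VEGFA they were HSF2BP (r = 0.98), TSPAN9 (0.98) and COL1A1 (0.97), and for NRP1 IL17RA (0.96), SLC35F6 (0.95) and NUCB2 (0.95). For VEGFA the likeness came mainly from BFTC909, with r of 0.987 to 0.995 within its 6 libraries and 0.534 to 0.727 within those of FADU. For NRP1 it was from 0.846 to 0.970 within BFTC909 and from 0.959 to 0.994 within FADU. These are descriptions: libraries share groups and tables, and COL1A1 is also 1 of the fibroblast markers above, at 199 to 771 in BFTC909 and 4.40 to 6.62 in FADU.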

How the data were processed

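RNA was measured in 21 libraries, made with a ribosomal RNA depletion kit and sequenced in pairs. Per the labels and the study's methods, the authors used Trim Galore for trimming, HISAT2 for alignment on hg19, htseq-count for gene counts and the TMM method of edgeR for scaling; versions are not given in the sources used here. Each deposited value is the signal of 1 gene in TMM-normalized CPM. Deposited tables of comparisons hold the authors' log2 fold changes and p-values and were not used. For knockdown and overexpression libraries, 100.0% of values were whole multiples of 1 read within 0.1, which gave 19039000 to 25411000 reads per library; for mutant libraries, 40.9% to 43.0% of each column lay in rows that name no gene and was left out.

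Symbols came from a table of gene identifiers, with 18887 of 19505, 16721 of 17232, 17763 of 18316 and 15308 of 15719 identifiers matched in the FADU knockdown, BFTC909 knockdown, overexpression and mutant tables. The main test was limma 3.58.1 with trend, in R 4.3.3, on log2(value + 1) for genes that reached 1 in 2 or more libraries (16324, 14869 and 15644 genes), with all 6 libraries of a table in the fit. A call needs a Benjamini-Hochberg adjusted p under 0.05 over all genes and a 1.3-fold change of value + 1, a measure that makes changes of low genes look smaller. The count test, edgeR 4.0.16 on recovered reads, called 3198 and 4646 genes in the FADU hypoxia and METTL4-si comparisons, 5497 and 3783 in those of BFTC909, and 3029 and 4801 with METTL4-OE and RP11-390F4.3-OE; DESeq2 1.42.0 was also run. Scripts were tested on simulated data.

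Members and lists were chosen with earlier results of these data known. Named genes are all 10 members, the 3 called pathway genes with the largest change in each direction of a comparison, and the 3 genes of closest pattern to VEGFA and NRP1. VASH2 is named besides. PECAM1 was not analysed here. Samples with the same replicate number were not treated as paired. Correlations of replicate differences between groups were 0.648 for FADU normoxia with FADU METTL4-si and from -0.0652 to 0.15 for the other pairs. In both groups of the former pair, replicate 1 was the library with breast markers.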

Additional observations from a re-analysis of the deposited data

Results flagged for a closer look

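Within each cell line, some of the 10 genes moved one way in all FADU libraries and the opposite way in all BFTC909 libraries; each such gene is given with its log2 difference. The difference between the lines was not tested, and the hypoxia comparison also chose the genes. At 1% O2 against 18% O2, VEGFA differed by -0.41 in FADU and 2.49 in BFTC909, NRP1 by -0.83 and 0.41, and NRP2 by -3.001 and 0.20. VEGFC differed by 1.99 in FADU and -0.27 in BFTC909, PGF by 2.53 and -0.24, and SEMA3F by 0.54 and -0.18. The BFTC909 differences of NRP2, VEGFC, PGF and SEMA3F were all under 1.3-fold. With METTL4-si at 1% O2, VEGFA differed by 0.45 in FADU and -0.81 in BFTC909.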

How the results depend on the processing

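In all, 7, 5, 6 and 6 members were called in the METTL4-si comparisons of FADU and BFTC909 and with METTL4-OE and RP11-390F4.3-OE, and pseudocounts of 0.1 and 5, both filters, fits to the compared groups alone, without trend or with median-centred libraries, edgeR, DESeq2 and the unadjusted p kept them within 1.5 times. Leaving out 1 library in turn gave 6 to 9, 4 to 6, 5 to 7 and 6 to 7 calls, and 8 to 9 and 5 to 6 members past 1.3-fold without overlap under hypoxia in FADU and BFTC909. More members passed 1.3-fold in either mutant clone alone, a setting added after the data were seen, than in both. No share over all genes was taken for 1 clone, so nothing is read from this. A 2-fold limit left 3 members called with METTL4-si in BFTC909 by construction, and left 2 pathway genes in FADU hypoxia, 4 with METTL4-si in FADU, 12 and 8 in the 2 BFTC909 comparisons, and 6 with each transgene. The 6 pathway calls of FADU hypoxia became 3 with a pseudocount of 5, where all genes gave 1111 higher and 1145 lower of 16324. With the compared groups alone they became 10, where all genes gave 2089 higher and 2147 lower of 15711. The cause was not tested. Leaving out 1 library gave 2 to 10 pathway calls there, 5 to 26 with METTL4-si in FADU, 17 to 23 and 17 to 29 in BFTC909 hypoxia and METTL4-si, and 21 to 22 and 19 to 23 with METTL4-OE and RP11-390F4.3-OE. Calls over all genes also changed when 1 library was left out, so these ranges are not particular to members or pathway genes. With the replicate number as a block, 7, 5, 6 and 6 members were called as before, and 0 member calls changed. No called gene changed direction; of the members not called, SEMA3F ran from -0.45 to 0.088 with METTL4-si in FADU and EFNA1 from -0.075 to 0.39 in BFTC909, and the untested VEGFA and NRP1 turned sign between the mutant clones. With 2 libraries per group, differences near 1.3-fold depend on 1 library.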
